A study of Nicotiana tabacum with 36 samples.

Results

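Root RNA at the start of the night was compared with root RNA at its end. The plants were tobacco (*Nicotiana tabacum*) cv. K326, a flue-cured cultivar, 56 days old and grown with 18 h of light and 6 h of darkness. The root ZT18 group holds 3 libraries, harvested when the lights went off, and the root ZT0 group holds 3 libraries, harvested at dawn, where ZT counts hours from lights on. These 6 libraries were chosen by their labels from 36, which also cover ZT6 and ZT12 and, at all 4 time-points, whole shoot and shoot apex, with 3 replicates in each of the 12 groups. The labels name no treatment and give 1 cultivar and 1 age for all plants, and the root was sampled as a whole organ, so fewer cells of a type and less RNA per cell cannot be told apart. The labels give no harvest date, so they do not say whether ZT0 was harvested before or after ZT18.

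As background, most plant genes with a daily rhythm follow a circadian clock that runs in every organ, in which proteins made around dawn and proteins made towards the evening repress each other's genes. Root cells receive little light. In *Arabidopsis* their clock is set in part by sugars and other signals sent down from the shoot, and by light conducted along the plant. The night itself is a change of fuel for the root, since carbon then comes from starch broken down in the leaves and not from photosynthesis of the same hour.

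The unit of measurement was the predicted gene model, of which there are 69500. Each has an expected count, the reads assigned to it after shared reads are divided among similar models, and TPM, the transcript abundance that corrects the count for the length of the model and the depth of the library. Total expected counts were 11202416 to 15244610 in the ZT18 libraries and 11095988 to 15779324 in the ZT0 libraries. The 6 libraries correlated with other root libraries at a mean r of 0.948 to 0.962 (log2(TPM + 1), across gene models), while the highest r with any shoot library was 0.859 and with any shoot apex library 0.83. All 6 therefore stood with root. The IDs are paired with no gene names in the files used here, so models are called by their length in bases and only 4 by ID, and tissue markers could not be looked up. Root ZT18 replicate 2 is 1 of 5 libraries of the series with low mapping rates in the study's quality table. Its deposited total of 13332241 expected counts is far above the mapped reads listed there, so that rate may not describe the deposited counts. Values without these 5 libraries are given where they change a result.

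The 6 root libraries also differ in the length of the models that took the reads. The count-weighted mean of 1000 divided by model length was between 0.827 and 0.874 in 3 of them, ZT18 replicates 2 and 3 and ZT0 replicate 1, and between 0.648 and 0.706 in the other 3. Each kind occurs at both time-points.

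Between ZT18 and ZT0 very few root transcripts passed a test whose estimate of the spread drew on all 12 groups. The median replicate SD of log2 counts, scaled to library size, was 0.515 in root ZT0, the largest of the 12 groups. It was 0.475 in root ZT18. Of 44594 gene models tested, 8 were lower at ZT18, 0.0179% of those tested, and 0 were higher (Benjamini-Hochberg adjusted p under 0.05 in the quasi-likelihood test of edgeR, fitted over all 36 libraries). At an unadjusted p under 0.05 there were 1733 models, 3.89% of those tested, divided into 858 lower and 875 higher. With DESeq2 35 were lower and 5 higher, and all 8 were among the 35. The fitted log2 fold change had a median of 0.01 over all models with quartiles of -0.23 and 0.27, beside a median SE of 0.43, and 6.56% of models had a fitted difference of at least 2-fold in either direction. So the typical root transcript differed by less than its error, and the smallest adjusted p of a model outside the 8 was 0.0783.

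**Figure D1:**
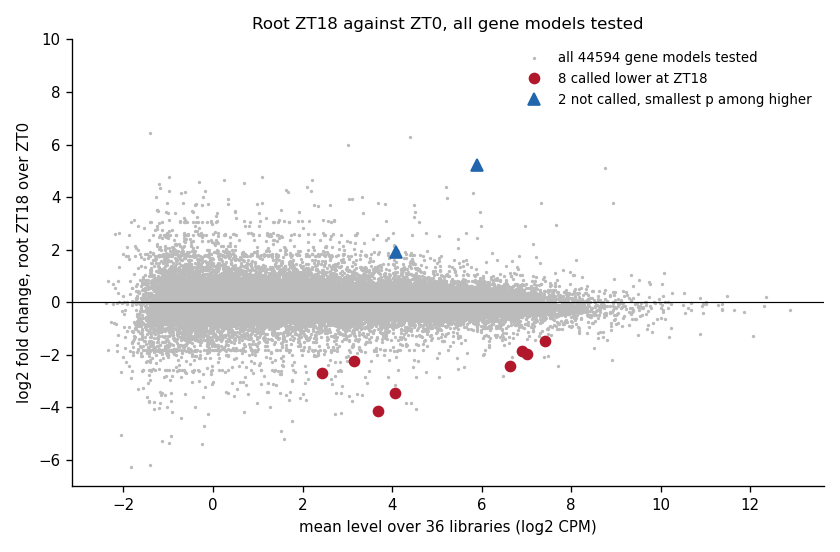
Fitted log2 fold change of ZT18 over ZT0 in root (vertical axis) against mean level over the 36 libraries in log2 CPM, counts scaled to library size (horizontal axis) for the 44594 gene models tested (grey). The 8 models called lower at ZT18 (red circles) lie between -4.15 and -1.46, and the 2 blue triangles are the models with the smallest p among those higher at ZT18, which were not called.

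The 8 models are described by their closest pairs in pattern over the 12 groups, and then the rest. The pairs are not sharply set apart, since some models of different pairs were nearly as alike. Since they were called from these 6 libraries, the 6 values of each model illustrate the call and add no evidence to it. TPM ranges of the 2 time-points did not overlap for 7 of the 8, and over all models tested this held, with ZT18 lower, for 1.95%.

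A 1632-base and a 1659-base model were the furthest below their ZT0 level at ZT18. The 1632-base model had 0.08, 0.24 and 0.14 TPM in ZT18 roots, against 1.94, 2.79 and 4.86 TPM in ZT0 roots. Its log2 fold change was -4.15 (SE 0.55, adjusted p = 0.000304, edgeR). At ZT18 this model was close to the limit of detection, with 1.0, 4.63 and 3.0 expected counts in the 3 libraries, and the counts alone put the ZT0 level at 19-fold the ZT18 level with an interval from 9.38-fold to 40.7-fold (95%, exact, counting error only). The 1659-base model had 0.58, 0.53 and 0.38 TPM in ZT18 roots and 3.51, 4.80 and 7.63 TPM in ZT0 roots. It had the smallest p in root, with a log2 fold change of -3.46 (SE 0.38, adjusted p = 3.52e-05). For both models every ZT18 library lay far below the lowest ZT0 library, and ZT0 replicate 3 was the highest.

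Nitab4.5_0007792g0010.1 and a 2299-base model were present at a higher level. Nitab4.5_0007792g0010.1 had 5.43, 4.25 and 4.35 TPM in ZT18 roots, against 17.8, 19.4 and 37.4 TPM in ZT0 roots, a log2 fold change of -2.44 (SE 0.31, adjusted p = 0.000303). The 2299-base model had 9.21, 5.52 and 5.78 TPM in ZT18 roots and 17.5, 16.5 and 37.2 TPM in ZT0 roots, a log2 fold change of -1.84 (SE 0.28, adjusted p = 0.00495). Again no ZT18 library reached the ZT0 range. The levels of these 2 models were close to each other in every root library, with a ratio of the first to the second between 0.59 and 1.24.

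A 1642-base model and Nitab4.5_0007189g0040.1 made a second pair of like pattern. The 1642-base model had 1.77, 0.77 and 1.52 TPM in ZT18 roots, against 4.93, 6.08 and 15.01 TPM in ZT0 roots, a log2 fold change of -2.70 (SE 0.39, adjusted p = 0.00259). Nitab4.5_0007189g0040.1 had 3.73, 2.11 and 2.99 TPM in ZT18 roots and 7.91, 12.3 and 20.2 TPM in ZT0 roots, a log2 fold change of -2.23 (SE 0.37, adjusted p = 0.00748). The groups of both models stood apart, while the ZT0 libraries differed widely among themselves.

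The remaining 2 models had no partner of this kind. A 1964-base model had 6.18, 3.43 and 4.24 TPM in ZT18 roots, against 9.41, 10.7 and 33.2 TPM in ZT0 roots, a log2 fold change of -1.96 (SE 0.31, adjusted p = 0.00722). Most of its mean difference came from ZT0 replicate 3, which was 3.09-fold above the next ZT0 library. The most abundant of the 8, a 1192-base model, had 450, 205 and 283 TPM in ZT18 roots and 434, 1046 and 985 TPM in ZT0 roots. Its log2 fold change was -1.46 (SE 0.25, adjusted p = 0.0152). It is the model whose ranges overlapped, since ZT18 replicate 1 lay above ZT0 replicate 1.

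**Figure D2:**
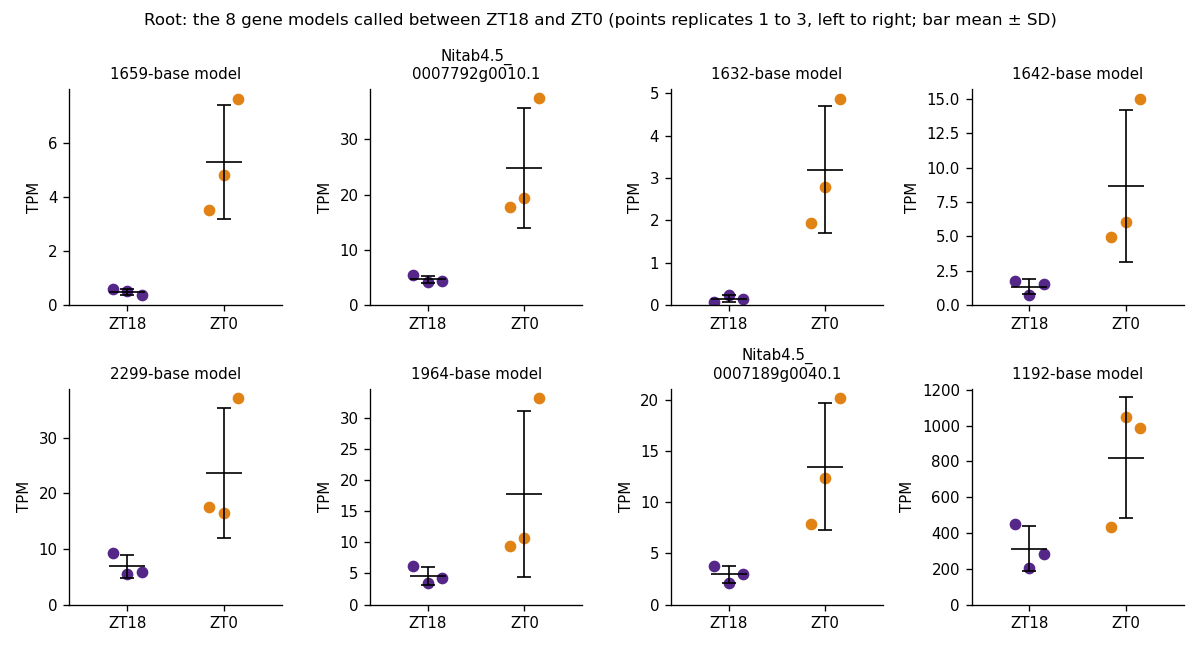
TPM (vertical axes, each starting at 0) of the 8 gene models in root at ZT18 (purple) and ZT0 (orange), with points for replicates 1 to 3 and the mean ± SD as bars. In 7 panels all ZT18 points lie below all ZT0 points, and in the 1192-base panel the ZT18 point at 450 TPM lies above the ZT0 point at 434 TPM.

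Several of the calls rested on single libraries and on the fit over all tissues. Fitted on the 12 root libraries alone 2 of the 8 were called, and on the 6 libraries alone 0, with 803 models at an unadjusted p under 0.05. limma on log2(TPM + 1) called 3 other models lower and none of the 8. ZT0 replicate 3 held the highest root ZT0 value of 7 of the 8 models. In shoot, too, ZT0 replicate 3 was the highest for 8 of the 8, while in shoot apex replicate 2 was. In each tissue this was the ZT0 library most weighted to longer models, by the inverse length given above (0.685, 0.693 and 0.797). Root ZT18 replicate 1, the most so weighted at ZT18 (0.648), held the highest root ZT18 value of 7 of the 8. The share of all models tested with this order of libraries is not given here, so the order cannot be read as particular to the 8. What part model length has in this order was not tested. Without root ZT0 replicate 3, 4 of the 8 were still called, the 1659-base, 1632-base and 1642-base models and Nitab4.5_0007792g0010.1. Without ZT18 replicate 2, the library with the low mapping rate, 3 were still called (the 1659-base and 1632-base models and Nitab4.5_0007792g0010.1), and the same 3 without all 5 such libraries. Without ZT18 replicate 3, 4 of the 8 were still called. In the 3 libraries weighted to shorter models the median log2 ratio of mean TPM, ZT18 over ZT0, was -1.84 over the 8 models. It was -2.25 in the 3 weighted to longer models. These ratios set 2 ZT18 libraries against 1 of ZT0 and 1 against 2, in that order. The 8 were chosen on these same libraries, so the values describe sizes only, and the part of the length difference in the calls was not tested within each kind.

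No root transcript passed edgeR's test as higher at ZT18 in the fit over 36 libraries. The 2 with the smallest p among the higher ones are given as values, with an adjusted p of 0.0783 in both cases. Nitab4.5_0004068g0030.1 had 0.70, 0.08 and 0.15 TPM in ZT18 roots and was listed at 0 in all 3 ZT0 roots. Its 14.1 expected counts at ZT18, set against a floor of 3 counts over the ZT0 group, give a ratio of 4.53-fold. This ratio leaves out the counting error of the 14.1 counts and is no sure bound. The model had very few reads, and its highest value came from replicate 1. It passed without ZT18 replicate 2, the library with the low mapping rate (adjusted p = 0.0402, edgeR), and in no other of the 17 alternatives that gave it a value, over which the adjusted p reached 1. The same model averaged 48.9 ± 29.9 TPM in shoot at ZT18 and 68.7 ± 2.31 TPM in shoot at ZT0 (SD, n = 3 each), so its root level is a small fraction of that of shoot. Nitab4.5_0002382g0030.1 had 1.19, 0.56 and 0.69 TPM in ZT18 roots, against 0.14, 0.22 and 0.26 TPM in ZT0 roots, a fitted log2 fold change of 1.90 (SE 0.37) that also rests on 2 to 3 counts per ZT0 library.

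Detection of transcripts differed little between the time-points. With TPM of at least 1 asked of all 3 replicates, 36313 gene models were expressed in root at ZT18 and 35194 at ZT0, and 34336 at both. The shared models make up 94.6% of those at ZT18 and 97.6% of those at ZT0. The 1977 models that met the rule at ZT18 alone included 0 called models, and the 858 that met it at ZT0 alone included 3. The called models, 0.0179% of those tested, were chosen as lower at ZT18 in these same libraries. Both counts follow from that choice and say nothing about detection. Most models that met the rule at a single time-point were above the threshold in at least 1 library of the other. Models expressed at ZT18 alone still had a median of 2.57 TPM in their highest ZT0 library. For those expressed at ZT0 alone it was 2.79 TPM in their highest ZT18 library.

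The root libraries of ZT6 and ZT12 are on neither side of the contrast, although they share its estimate of the spread, and they fill in the rest of the day. In root the mean was highest at ZT6 for 6 of the 8 models and at ZT0 for 2, the 1964-base and 1192-base models, and it was lowest at ZT18 for all 8, which were chosen for a low ZT18 value against ZT0. Nitab4.5_0007792g0010.1 averaged 24.9 ± 10.9 TPM at ZT0 and 29.8 ± 4.73 TPM at ZT6, then 9.68 ± 2.27 TPM at ZT12 and 4.68 ± 0.654 TPM at ZT18 (SD, n = 3 each). Nitab4.5_0007189g0040.1 averaged 13.5 ± 6.21 TPM at ZT0 and 19.2 ± 1.61 TPM at ZT6, then 7.22 ± 1.42 TPM at ZT12 and 2.94 ± 0.811 TPM at ZT18. In these models the ZT0 and ZT6 values overlap, so which of them is the peak is not settled by 3 replicates. The 1192-base model differed in shape, with 822 ± 337 TPM at ZT0 followed by 388 ± 113 TPM at ZT6, 364 ± 49.7 TPM at ZT12 and 313 ± 125 TPM at ZT18.

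The contrast of ZT12 with ZT6 has no library in common with that of ZT18 with ZT0. All 8 models had a lower fitted value at ZT12 than at ZT6, with a median log2 fold change of -1.34, beside 43.4% of all models below 0 and a median of 0.09. None of the 8 passed the test there (adjusted p from 0.0522 for Nitab4.5_0007792g0010.1 to 0.909 for the 1192-base model, edgeR), where 0.0157% of all models tested, 7 in number, did. Without shoot ZT6 replicate 1, a library whose scaling factor is far from the rest, 2 of the 8 passed. They were the 1659-base model and Nitab4.5_0007792g0010.1, each with an adjusted p of 0.0425 (edgeR). The 5 libraries of low mapping include root ZT6 replicates 1 and 2. Without these 5 libraries 0 of the 8 passed, each with an adjusted p of 0.872 (edgeR).

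**Figure D3:**
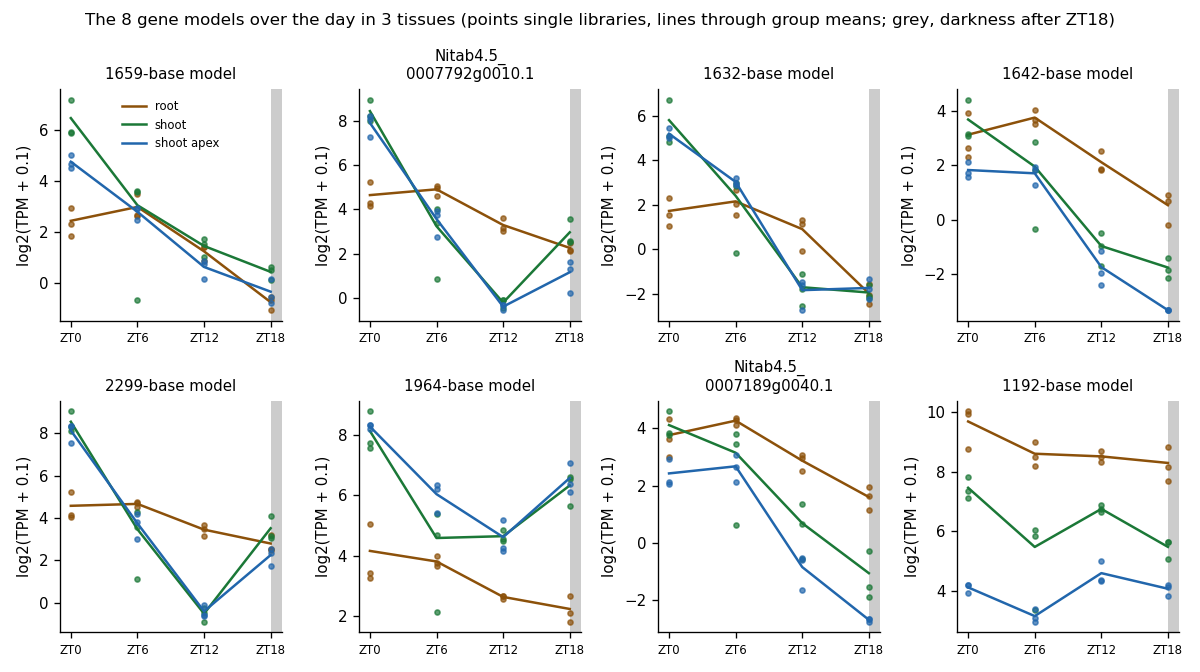
log2(TPM + 0.1) (vertical axes) of the 8 gene models at ZT0, ZT6, ZT12 and ZT18 (horizontal axes) in root (brown), shoot (green) and shoot apex (blue), with points for single libraries, lines through group means and a grey band for the start of darkness. Root means rise to ZT6 in 6 panels and are lowest at ZT18 in all 8. Shoot means are highest at ZT0 in all 8 panels and shoot apex means in 6. The lowest mean is at ZT18 in 4 shoot and 3 shoot apex panels, and several aerial lines rise again from ZT12 to ZT18.

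Most of these models were also lower at ZT18 than at ZT0 in the aerial tissues, whose libraries are on neither side of the root contrast, although they share its estimate of the spread. In shoot 8 of the 8 were lower at ZT18 than at ZT0 and passed the test, where 1.06% of all models tested were called lower. In shoot apex 7 of the 8 passed, where 1.16% were called lower, and the exception was the 1192-base model with a log2 fold change of -0.21 (SE 0.25, adjusted p = 1). Median log2 fold changes over the 8 were -5.1 in shoot and -6.3 in shoot apex, or -6.09 in shoot apex with the 1642-base model set at its bound, because that model had 0 counts in the 3 shoot apex libraries of ZT18. With a floor of 3 counts in place of the 0 it was at least 70-fold lower there at ZT18, from 184 counts at ZT0. The counting error of the 184 is left out. Nitab4.5_0007189g0040.1 had 3 counts in all in shoot apex at ZT18 and was 106-fold lower than at ZT0, with an interval from 36-fold to 518-fold (95%, exact, counting error only).

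The difference between ZT18 and ZT0 was smaller in root than in the aerial tissues for most of the 8. For Nitab4.5_0007792g0010.1 the root log2 fold change was -2.44 (SE 0.31), against -5.11 (SE 0.35) in shoot and -6.99 (SE 0.38) in the apex. Tested directly, the shoot difference minus the root difference was -2.68 (SE 0.42, adjusted p = 0.00168) and the shoot apex difference minus the root difference -4.55 (SE 0.43, adjusted p = 5.17e-07). For Nitab4.5_0007189g0040.1 the same tests gave -2.86 (SE 0.53, adjusted p = 0.0079) and -4.32 (SE 0.60, adjusted p = 0.000123). The test against shoot was passed by 6 of the 8, all with the larger difference between ZT18 and ZT0 in shoot, where 0.413% of all models were called. The test against shoot apex was passed by 5 of the 8, all with the larger difference in shoot apex, where 0.453% were called. The root libraries that chose the 8 models enter these tests too.

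The 1964-base and 1192-base models passed neither test, and the 1659-base model passed only against shoot (against shoot apex, adjusted p = 0.0768). For the 1964-base model the root log2 fold change of -1.96 (SE 0.31) stood beside -1.45 (SE 0.31) in shoot and -1.93 (SE 0.31) in the apex, and the differences of shoot and of shoot apex from root were 0.50 (SE 0.42) and 0.02 (SE 0.40). For the 1192-base model the difference of shoot from root was -0.16 (SE 0.34) and that of shoot apex from root 1.25 (SE 0.35, adjusted p = 0.144). Without the 5 libraries of low mapping, 3 of the 8 passed against shoot and 4 against shoot apex, and Nitab4.5_0007792g0010.1, the 2299-base model and Nitab4.5_0007189g0040.1 passed both.

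**Figure D4:**
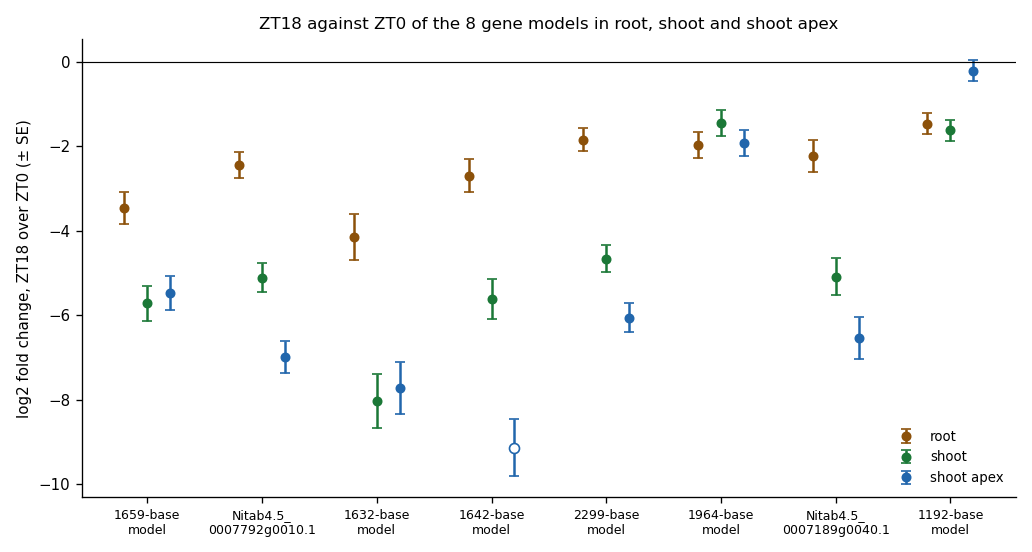
Fitted log2 fold change of ZT18 over ZT0 (vertical axis, ± SE) for the 8 gene models in root (brown), shoot (green) and shoot apex (blue). Root points lie between -4.15 and -1.46, shoot points between -8.04 and -1.45 and shoot apex points between -9.14 and -0.21. The open point is fitted from a group with 0 counts.

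Root also differed from the aerial tissues in the hours after dawn. For Nitab4.5_0007792g0010.1 the mean TPM at ZT6 was 1.2 times that at ZT0 in root, against 0.0269 times in shoot and 0.049 times in the apex. For the 2299-base model the ratio of ZT6 to ZT0 was 1.06 in root, against 0.0295 in shoot and 0.0476 in the apex. In root the ZT6 means of both transcripts were thus no lower than their ZT0 means, while in the aerial tissues little of the dawn level was left. This difference was tested after the values had been seen. The change between ZT0 and ZT6 in shoot minus that in root was -4.91 (SE 0.43, adjusted p = 1.75e-07) for Nitab4.5_0007792g0010.1 and -4.60 (SE 0.41, adjusted p = 1.75e-07) for the 2299-base model. Of the 8 models 5 passed this test against shoot, where 1.03% of all models were called, and 5 against shoot apex, where 0.588% were. They were the same 5, and the 1642-base model, Nitab4.5_0007189g0040.1 and the 1192-base model passed neither. Root ZT6 replicates 1 and 2 and shoot ZT6 replicate 1 are among the libraries of low mapping, and without these and the 2 others 3 of the 8 passed against shoot and 2 against shoot apex. Nitab4.5_0007792g0010.1 and the 2299-base model passed in each case.

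Levels compared between tissues changed order with the hour. At ZT0 the mean TPM of 7 of the 8 models was lower in root than in shoot. The 1659-base model averaged 5.31 ± 2.11 TPM in root and 87.5 ± 49.0 TPM in shoot, and the 2299-base model 23.7 ± 11.7 TPM in root and 372 ± 135 TPM in shoot. By ZT12 the 2299-base model stood at 10.8 ± 1.83 TPM in root against 0.60 ± 0.151 TPM in shoot. At ZT18 it had 6.84 ± 2.06 TPM in root against 11.3 ± 4.93 TPM in shoot, and 5 of the 8 models had the higher mean in shoot. Over the ZT6 and ZT12 libraries together, 6 of the 8 models were higher in root than in shoot, where 24.9% of all models were, and 6 were higher in root than in shoot apex, where 29.6% were (adjusted p under 0.05, edgeR). The 1964-base model was lower in root in both comparisons, with log2 fold changes of root over shoot of -1.73 (SE 0.22) and of root over shoot apex of -2.18 (SE 0.22). The 1659-base model passed neither.

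Seen from the other side, most transcripts called between ZT18 and ZT0 in the aerial tissues were not called in root. Of the 473 models lower at ZT18 in shoot, 323 (68.3%) had a fitted value below 0 in root, with a median log2 fold change of -0.21 in root and -1.82 in shoot. Of the 416 models higher at ZT18 in shoot, 279 (67.1%) had a value above 0 in root, with a median of 0.15 in root and 1.56 in shoot. Over all models tested 48.2% were below and 51.2% above 0 in root. The lists leaned in root towards their shoot direction, at a much smaller size, and they were chosen for their size on the shoot libraries.

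The lean was also seen in the 411 models called the same way in both aerial tissues. Of the 290 that were lower in both, 59 (20.3%) were lower in root at an unadjusted p under 0.05, where 1.92% of all models were, and 7 of these passed the adjusted test. Their median log2 fold change was -0.22 in root, against -2.34 in shoot and -2.64 in the apex. Of the 121 that were higher in both, 15 (12.4%) were higher in root at an unadjusted p under 0.05, where 1.96% of all models were, and 0 passed the adjusted test. Their root median was 0.28, against 1.74 in shoot and 1.75 in the apex. Across these 411 models the fold changes of root and of shoot had a Pearson r of 0.37, and across all 44594 models an r of -0.05. These are correlations over gene models, which are not independent replicates, and the 2 tissues share no library. The 411 were chosen as called in both aerial tissues, which leaves out models near 0 there, so the 2 values are not comparable.

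**Figure D5:**
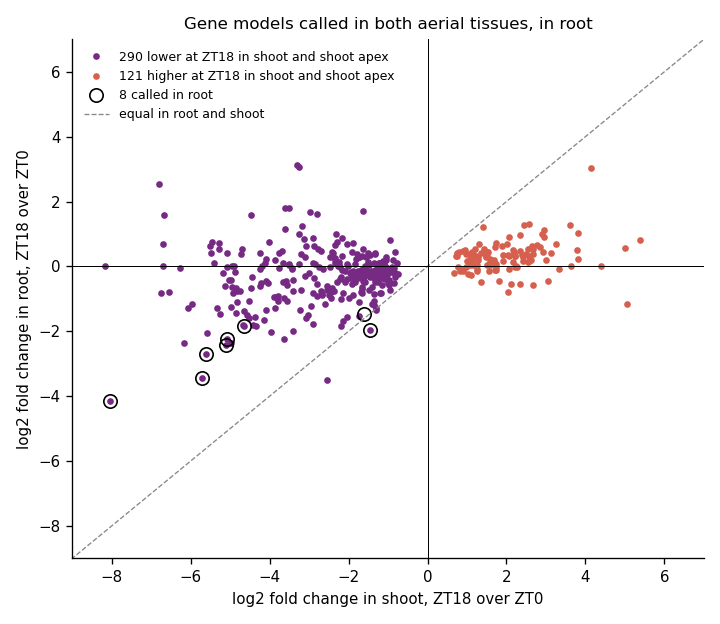
log2 fold change of ZT18 over ZT0 in root (vertical axis) against that in shoot (horizontal axis) for the 290 gene models lower (purple) and the 121 higher (orange) at ZT18 in both shoot and shoot apex. In root 286 of the 290 and all 121 lie nearer to 0 than in shoot, off the dashed line of equal change, and the 8 models called in root are ringed. The ring without a point in it is the 1192-base model, which was not called in shoot apex.

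The 8 models were each longer than the median model tested. Their lengths ran from 1192 to 2299 bases with a median of 1654, and all models tested had a median of 1152. Their mean level in the 6 root libraries ran from 1.675 to 567 TPM with a median of 9.70, near the median of 8.56 TPM of all models tested. They lie on 8 different scaffolds, as the IDs give them. Of 13 neighbouring models on those scaffolds 10 were tested, with log2 fold changes from -0.84 to 0.95. At an unadjusted p under 0.05 (edgeR) 0 of these were lower in root at ZT18, and none was called. Over all models tested 1.92% were lower at that p, so 0 of 10 does not set the neighbours apart.

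By likeness over the 12 group means (Pearson r of log2(TPM + 1), n = 12 groups, given as a description), the closest pairs were Nitab4.5_0007792g0010.1 with the 2299-base model and the 1642-base model with Nitab4.5_0007189g0040.1, both at r = 0.99, and then the 1659-base with the 1632-base model at r = 0.96. Likeness did not stop at these pairs. The 1632-base model had r = 0.92 with Nitab4.5_0007792g0010.1 and r = 0.90 with the 2299-base model. Tobacco is an allotetraploid that carries gene copies from both ancestral species, and reads shared by near-identical copies are divided between them by estimation. Whether members of a pair are such copies was not tested, so their values may not be independent of each other. The 1192-base model was least like the rest, with r of at most 0.54 with any other.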

How the data were processed

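Total RNA was made into random-primed cDNA libraries and sequenced as single reads of 100 bases. Per the methods, the authors removed adapters and poor bases, aligned the reads to gene models predicted on assembly Nitab4.5 and ran RSEM. The submitters' processing notes name CASAVA 1.9.4, Bowtie 1.1.0 and RSEM 1.2.7. For each library the authors deposited the expected count of each model, an estimate that is not normalised, and its TPM. Reads that fit several models are divided among them by estimation, so values of near-identical copies are uncertain. A deposited table of the whole series was not used here.

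The sample labels gave the groups, and replicates are those the authors call biological. Expected counts were rounded to whole numbers, filtered by filterByExpr (minimum count 10, minimum total count 15), which kept 44594 of 69500 gene models, scaled by TMM and tested with glmQLFit and glmQLFTest of edgeR 4.0.16, over 36 libraries in 12 groups without a replicate block. Adjusted p-values are Benjamini-Hochberg values over all models tested with a threshold of 0.05, and tests were two-sided. SE is the log2 fold change divided by the square root of the F statistic. A permutation test of 3 against 3 libraries cannot give a p below 0.1, so none was used. Fold bounds use a floor of 3 counts over a group and leave out the counting error of the higher group. Intervals cover counting error only. DESeq2 1.42.0 and limma 3.58.1 served as alternatives (R 4.3.3). Python 3.11.15, pandas 2.3.3 and NumPy 2.4.6 were used for tables.

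The models named by ID are those with the largest fold change in each direction among called models with a mean of at least 10 TPM in the higher group and ranges that do not overlap. Where none qualified, the models with the smallest p in that direction were taken. The models and comparisons were chosen with earlier results of these data known. Of the IDs, 0 matched the RefSeq gene table of the species. Libraries with under 25% of reads mapped in the study's quality table, 5 in number, were left out in an alternative. Between libraries of root ZT18 and ZT0 with the same replicate number, deviations from the group means correlated at -0.72, -0.30 and -0.31, so the numbers were not taken to pair the libraries. No pair of libraries held identical counts.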

Additional observations from a re-analysis of the deposited data

Results flagged for a closer look

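For 7 models the difference between ZT18 and ZT0 in root was not the same as in an aerial tissue by a direct test of that difference (edgeR's quasi-likelihood test, Benjamini-Hochberg adjusted p under 0.05). Given as the log2 fold change of ZT18 over ZT0 in the aerial tissue minus that in root, the 1659-base model differed by -2.27 for shoot (adjusted p = 0.0367). Nitab4.5_0007792g0010.1 differed by -2.68 for shoot (adjusted p = 0.00168) and -4.55 for shoot apex (adjusted p = 5.17e-07). The 2299-base model, its nearest in pattern, differed by -2.82 for shoot (adjusted p = 0.000461) and -4.22 for shoot apex (adjusted p = 5.17e-07). For the 1632-base model the values were -3.89 for shoot (adjusted p = 0.0181) and -3.58 for shoot apex (adjusted p = 0.021). The 1642-base model gave -2.92 for shoot (adjusted p = 0.0167) and -6.44 for shoot apex (adjusted p = 7.64e-05), where the second value is fitted from a group with 0 counts and is no bound. Nitab4.5_0007189g0040.1 gave -2.86 for shoot (adjusted p = 0.0079) and -4.32 for shoot apex (adjusted p = 0.000123). In these 6 models both fold changes were negative and the aerial one was the larger.

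Nitab4.5_0004068g0030.1, not called in root, differed by -5.50 for shoot (adjusted p = 0.0177) and -5.20 for shoot apex (adjusted p = 0.0223). These fits rest on 0 counts in root at ZT0 and are no bound. Without shoot ZT6 replicate 1 they no longer passed (adjusted p = 0.0563 and 0.0793).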

How the results depend on the processing

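The 8 models of root stayed below 0 under all 21 alternative fits. These fits use the same root libraries that chose the 8 as lower, or a part of them, so the sign adds no evidence. The count of calls between ZT18 and ZT0 in root was 7 or 8 under other size factors, the earlier form of the fit, no filter, a TPM filter, an adjusted p under 0.01, a 2-fold minimum, a covariate for model length and without shoot ZT6 replicate 1. It was 40 with DESeq2, 2 with the 12 root libraries, 2 with the 18 libraries of ZT18 and ZT0 and 0 with the 6 libraries. Without the 5 libraries of low mapping it was 4, and with limma 3 on log2(TPM + 1) and 0 on log2(TPM + 0.1). With each of the 6 root replicates of ZT18 and ZT0 left out it was 4 to 9, and not always the same models. Without root ZT0 replicate 3 the 9 calls held 4 of the 8, and 1 of the 9 was higher at ZT18. Without root ZT18 replicate 1, 2 of 9 were higher, and without root ZT18 replicate 2, 1 of 5. Fewer libraries leave fewer degrees of freedom for the spread. What part this or any other cause has in these counts was not tested.

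With the replicate number as a block the counts were 8 in root, 150 for the difference of shoot from root and 178 for that of shoot apex from root, and 0 in root with the 6 libraries alone. The numbers do not pair the libraries, so these are given as a check of the fit only.

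The difference of shoot from root was called for 184 models. It was called for 362 with DESeq2, 48 with 18 libraries, 54 and 15 with limma (pseudocounts 1 and 0.1), 98 without the 5 libraries, 56 at an adjusted p under 0.01 and 73 to 239 with each of the same 6 root replicates left out. Shoot and shoot apex replicates of ZT18 and ZT0 were not left out singly. The count of 73 was without root ZT0 replicate 2. The difference of shoot apex from root was called for 202 models, and for 342, 85, 50, 25, 126 and 111 under the same alternatives in the same order, with 121 to 212 when each of the 6 root replicates was left out. The comparisons of ZT6 with ZT0, the 18-library fit, the model-length covariate and the fit without shoot ZT6 replicate 1 were chosen after seeing the data. Without the 5 libraries, the comparison of ZT6 with ZT0 called 109 models for shoot against root, where the fit with all libraries called 461, and 67 for shoot apex against root, where it called 262. Expressed models numbered 24068 at ZT18 and 22771 at ZT0 when TPM of at least 5 was asked. At this depth the 1632-base model had under 5 counts in each ZT18 library.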
